A study of Mus musculus with 7 samples.

Results

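Prostaglandin synthesis and receptor genes were examined in forebrain RNA of mice with and without *Lhx6*, a transcription factor that interneurons of the medial ganglionic eminence (MGE) require. The members were the 10 genes *Ptgs1*, *Ptgs2*, *Ptges*, *Ptges2*, *Ptges3*, *Ptgds*, *Ptger1*, *Ptger2*, *Ptger3* and *Ptger4*, chosen by name for their place in the pathway and found by symbol among the 47729 genes of the count table. All 10 passed the filter on low counts, along with 19684 genes in all. The libraries were 4 of control mice (*Lhx6*+/-) and 3 of mutant mice (*Lhx6*-/-), all at postnatal day 15, of the strain F1(C57BL/6 X 129Sv) and each pooled from 2 animals. Every animal carried at least 1 copy of the Lhx6tm2Vpa allele, so no wild-type level was measured, and the allele acts in the whole body rather than in a chosen cell type. Control pools were of a single sex, whereas mutant pools were mixed or female, and the count table does not show which pool gave which library.

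Prostaglandins are short-lived lipid signals made from arachidonic acid, which phospholipases and monoacylglycerol lipase release from membrane lipids. The cyclooxygenases encoded by *Ptgs1* and *Ptgs2* turn it into prostaglandin H, and terminal synthases then make the E, D, F and I prostaglandins and thromboxane. *Ptgs1* is known as the housekeeping enzyme, prominent in microglia, and *Ptgs2* as the inducible one, which excitatory neurons of cortex and hippocampus express and synaptic activity raises. Prostaglandin E acts on receptors EP1 to EP4, encoded by *Ptger1* to *Ptger4*, which couple to calcium release, to rises in cAMP or to its inhibition. The comparison asks how RNA of this pathway differs in a forebrain whose MGE-derived interneurons develop without *Lhx6*.

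Among the 10 members, *Ptgs2* alone passed the threshold for a difference between genotypes, an adjusted p of at most 0.05 (quasi-likelihood test of edgeR, adjusted by Benjamini-Hochberg over all genes tested). It was 4.79-fold higher in mutants (log2 fold change 2.26, standard error [SE] 0.245, adjusted p = 0.00197, n = 4 and 3 pools). Of all tested genes, 4.85% were called by the same rule. Called higher were 2.97% of all tested genes, and called lower 1.87%. Its housekeeping counterpart *Ptgs1* and the inducible prostaglandin E synthase *Ptges* had log2 fold changes of 0.43 and 0.46 and did not pass, and none of the receptors passed. Outside the members, 3 of the 29 tested genes of the wider pathway were called, all higher, among them the prostaglandin carriers *Slco2a1* and *Abcc4*. The median log2 fold change of the 10 members was 0.13, against -0.013 over all tested genes.

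The start of *Ptgs2* is shown because it is also the start of a second transcript that was higher in each mutant library, *Ptgs2os*, which runs the opposite way. The start sites of the pair are 156 bases apart in RefSeq. The 280 bases below run from 250 before to 30 after the RefSeq start site of each gene (GRCm38.p6), 5′ to 3′ along the gene, with *Ptgs1* beside *Ptgs2* for comparison; RefSeq windows were found for 9 of the 10 members. The *Ptgs2* window lies at chr1:150099781-150100060 on the plus strand and the *Ptgs1* window at chr2:36230176-36230455, also on the plus strand.
Ptgs2: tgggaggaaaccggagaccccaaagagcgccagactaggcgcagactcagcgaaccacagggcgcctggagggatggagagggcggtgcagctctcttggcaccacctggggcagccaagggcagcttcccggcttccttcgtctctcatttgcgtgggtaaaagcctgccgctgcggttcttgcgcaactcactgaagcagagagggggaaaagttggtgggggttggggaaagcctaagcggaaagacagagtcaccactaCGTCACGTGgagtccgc
Ptgs1: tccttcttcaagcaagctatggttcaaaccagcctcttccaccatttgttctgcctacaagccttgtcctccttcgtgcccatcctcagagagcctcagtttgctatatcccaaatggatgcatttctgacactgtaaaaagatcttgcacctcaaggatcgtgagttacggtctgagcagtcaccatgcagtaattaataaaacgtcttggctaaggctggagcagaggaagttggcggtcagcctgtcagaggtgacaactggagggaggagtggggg
Capitals mark letters found by searching both strands for 5 motifs, the core of the cAMP response element (CRE, TGACG), the palindromic CRE (TGACGTCA), the E-box (CACGTG), the TATA box (TATAA) and the CCAAT box. In the *Ptgs2* window a reversed CRE core spans positions 14 to 18 and an E-box positions 17 to 22, counted from 1 at the start site, so the matches share letters and form the run CGTCACGTG. That run was taken from the *Ptgs2* window itself and then searched for on either strand. It was found in 0.438% of 32851 RefSeq windows of the same extent. A long exact string is rare by its length alone, so this share does not mark *Ptgs2* out. The CRE core was found in 19.9% of these windows and the E-box in 6.79%. None of the 5 motifs was found in the *Ptgs1* window, where TATAA would be met in 24% of windows and CCAAT in 36.1%. These are matches of letters in a reference sequence, and no binding was measured.

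Libraries summed to between 32556304 and 38069151 expected counts, so a count of 0 allowed up to 3 counts, or between 2.84 and 3.29 normalized counts, which covers counting error only. Normalized counts are counts scaled to a common effective library size. *Lhx6* itself had 476 to 615 normalized counts in the control libraries and 70.1 to 76.6 in the mutant libraries. Libraries 2, 3 and 5 stood apart from libraries 10 to 13 on the first principal component (41.7% of the variance), and both runs of numbers held both genotypes. The forebrain label was checked with 8 markers of forebrain neurons, whose summed level was 908 to 984 RPKM in controls and 1015 to 1197 RPKM in mutants (RPKM, reads scaled by exon length and effective library size), and with 8 hindbrain markers, which summed to at most 0.610 RPKM, with *Hoxa5* at 0 in every library. In these bulk samples, a change in the number of cells of a type and a change in RNA per cell cannot be told apart.

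The cyclooxygenases, the first step of the pathway, held the largest difference among the members. *Ptgs2* (ENSMUSG00000032487, chromosome 1, 150100031 to 150108227, plus strand, GRCm38) had 224, 286, 359 and 274 normalized counts in the control libraries 2, 3, 10 and 11, and 1039, 1970 and 1106 in the mutant libraries 5, 12 and 13. The lowest mutant library thus lay far above the highest control library, and library 12 lay well above the other mutants. The mean and SD were 286 ± 55.7 over the 4 control pools and 1372 ± 519 over the 3 mutant pools. No library decided the call. Without library 12 the log2 fold change was 1.91 (edgeR, adjusted p = 0.00383), and the difference was 2.03 in libraries 2, 3 and 5 and 2.28 in libraries 10 to 13. Over the test and its 16 alternatives the adjusted p of *Ptgs2* ran from 3.93e-18 with DESeq2 to 0.00834. None of its 36-base words occurs in another gene, and no other gene overlaps its exons.

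*Ptgs2os* lies from 150074873 to 150099963 on the minus strand of chromosome 1 and shares no exon with *Ptgs2*. It is a noncoding transcript and was close to the limit of detection in controls, with 6.58, 0, 7.68 and 4.07 normalized counts in libraries 2, 3, 10 and 11. Mutant libraries 5, 12 and 13 had 24.0, 20.7 and 21.8, all above the controls. Its fitted log2 fold change was 2.24 (SE 0.637), close to that of *Ptgs2*, but with so few counts it did not pass (adjusted p = 0.0906, edgeR). It was called by DESeq2 (adjusted p = 0.0169) and by edgeR without control library 3, the library at 0 (0.0269). The other noncoding neighbour, *Ptgs2os2*, stayed at 8.52 normalized counts or below in every library and was not tested.

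*Ptgs1* (ENSMUSG00000047250, chromosome 2, 36230426 to 36252272, plus strand) had 430, 489, 521 and 552 normalized counts in the control libraries 2, 3, 10 and 11, and 660.0, 707 and 644 in the mutant libraries 5, 12 and 13. The groups did not overlap, with a gap smaller than the range of the controls. The log2 fold change was 0.43 (SE 0.110, adjusted p = 0.0668, edgeR), which misses the threshold. DESeq2 gave an adjusted p of 0.00950, and edgeR with the run of numbers as a covariate gave 0.0213. *Ptgs1* lies 125 kb from *Lhx6*, and linked sequence and the loss of *Lhx6* cannot be told apart for it. Of the 16 tested genes within 1 Mb of *Lhx6*, *Ptgs1* among them, 0 were called with edgeR, nor were the 2 tested genes that lie between *Lhx6* and *Ptgs1*. Beside this, 10 microglia markers summed to 152 to 165 RPKM in controls and 132 to 148 RPKM in mutants, and their part in the *Ptgs1* values was not tested.

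The balance of the isozymes differed in every library. Per length of exon, *Ptgs2* stood at 0.422 to 0.584 times the level of *Ptgs1* in control libraries. In mutant libraries 5, 12 and 13 the ratio was 1.34, 2.36 and 1.46. *Ptgs1* was therefore the more abundant cyclooxygenase RNA in each control library and *Ptgs2* in each mutant library.

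**Figure D1:**
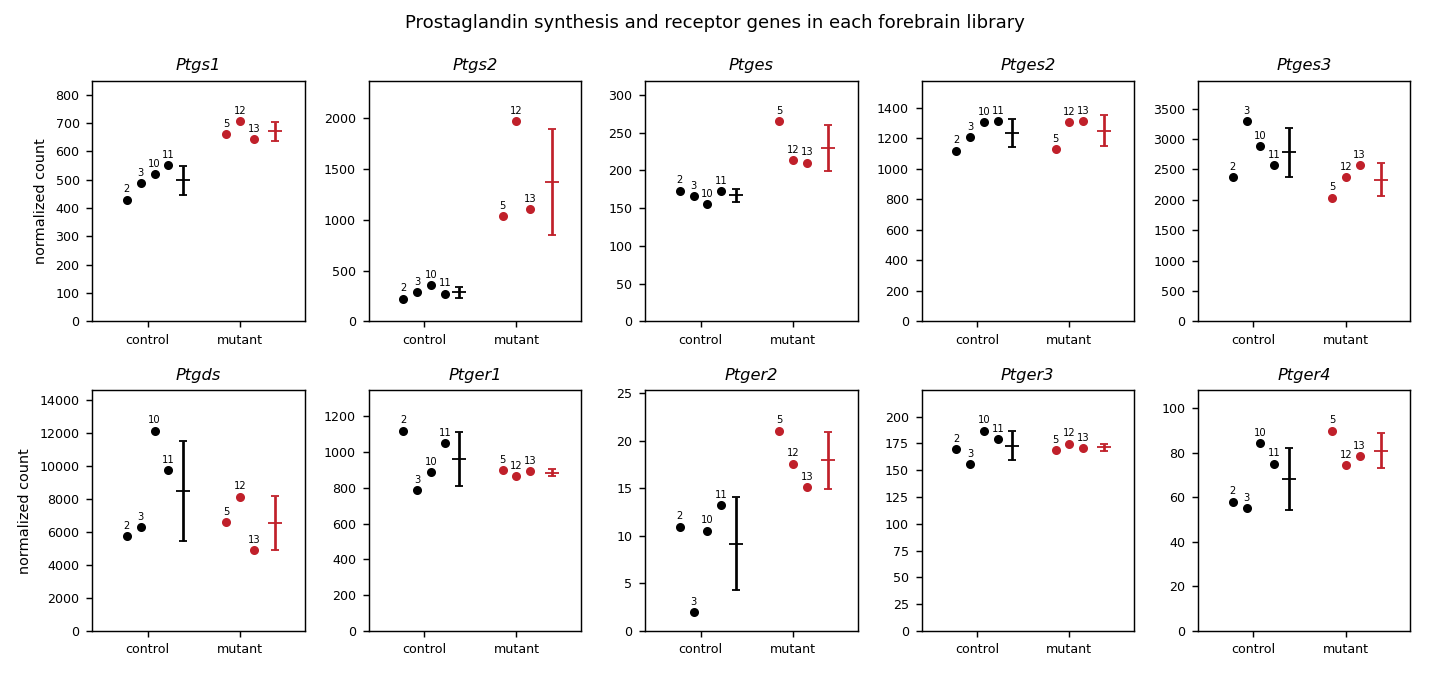
Normalized counts (vertical axis, starting at 0) of the 10 genes in 4 control (black) and 3 mutant (red) libraries, with library numbers at the points and bars for mean and SD. *Ptgs2* reaches 1039 to 1970 in mutants against at most 359 in controls, while most other members have groups that touch or overlap.

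Of the terminal synthases, *Ptges* showed the clearest separation. It encodes the inducible membrane enzyme that works with cyclooxygenase from *Ptgs2* (chromosome 2, 30889471 to 30929863, minus strand). Its normalized counts were 173, 166, 155 and 173 in control libraries 2, 3, 10 and 11, and 265, 213 and 210.2 in the mutant libraries 5, 12 and 13. All mutants lay above all controls, and library 5 lay highest. The log2 fold change was 0.46 (SE 0.131, adjusted p = 0.0898, edgeR), which misses the threshold; it was called by DESeq2 (adjusted p = 0.0475) and with the run of numbers as a covariate (0.0277). In libraries 2, 3 and 5 the difference was 0.65, and in libraries 10 to 13 it was 0.37.

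The other E synthases did not share this pattern. *Ptges2*, a membrane-associated enzyme made without induction, had 1120 to 1313 normalized counts in controls and 1132 to 1312 in mutants, so the groups covered nearly the same range (log2 fold change 0.017, SE 0.0916, adjusted p = 0.955 from edgeR). *Ptges3* encodes p23, a partner of the Hsp90 chaperone that also has E synthase activity. It had 2373, 3296, 2884 and 2569 normalized counts in the control libraries and 2039, 2375 and 2578 in the mutant libraries, overlapping, with a log2 fold change of -0.25 (SE 0.129, adjusted p = 0.350 from edgeR). Of the 36-base words of *Ptges3*, 20.2% are found in other genes as well, which makes its counts less certain.

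*Ptgds* encodes the lipocalin-type prostaglandin D synthase, known in the brain from oligodendrocytes, the leptomeninges and the choroid plexus, and was by far the most abundant member. It had 5761, 6282, 12140 and 9717 normalized counts in the control libraries 2, 3, 10 and 11, and 6590, 8134 and 4895 in the mutant libraries 5, 12 and 13. The controls split into a low pair, libraries 2 and 3, and a high pair, libraries 10 and 11, and the mutants fell within or below that range. The log2 fold change of -0.37 was within the spread between pools (SE 0.277, adjusted p = 0.556, edgeR). It was -0.15 without control library 10 and -0.56 without mutant library 12. In libraries 2, 3 and 5 the difference was 0.13, against -0.75 in libraries 10 to 13. The edgeR fit of libraries 10 to 13 alone gave a log2 fold change of -0.74, which did not pass (adjusted p = 0.0658). A test of the contrast between the runs of numbers was not made.

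Markers of the cells known to express *Ptgds* were called in oligodendrocytes alone. In a list of 9 genes of mature oligodendrocytes, all 9 had negative log2 fold changes (median -0.53, against -0.013 over all tested genes). *Mbp*, *Mag* and *Cnp*, which encode myelin proteins, fell (edgeR). Of all tested genes, 1.87% were called lower. Summed, the 9 oligodendrocyte markers had 1180 to 1601 RPKM in controls and 860 to 1113 RPKM in mutants, with no overlap. Leptomeningeal markers summed to 22.6 to 37.3 RPKM in controls and 25.7 to 31.3 RPKM in mutants, with library 10 highest, as it was for *Ptgds*. Choroid plexus markers ran from 102 to 218 RPKM in controls and from 48.0 to 166 RPKM in mutants. None of the 10 leptomeningeal and 8 choroid plexus genes was called, and the part of any of these cells in the *Ptgds* values was not tested.

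**Figure D2:**
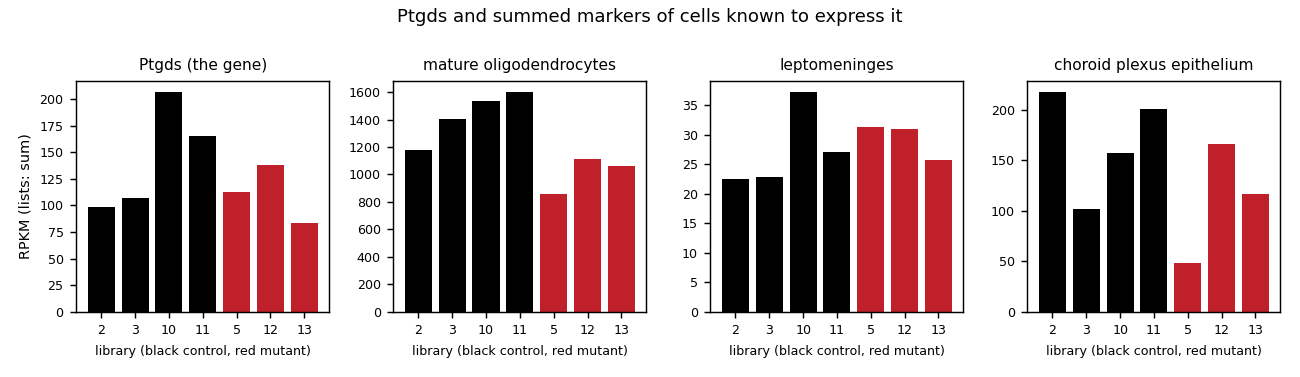
Level of *Ptgds* in RPKM and summed RPKM of marker lists for 3 cell types known to express it (vertical axes, starting at 0) in each library, control in black and mutant in red. *Ptgds* and the leptomeningeal sum are both highest in library 10, whereas the oligodendrocyte sum is at most 1113 RPKM in mutants and at least 1180 RPKM in controls.

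The receptors showed no call. *Ptger1* encodes EP1, which raises intracellular calcium, and had 786 to 1120 normalized counts in controls and 864 to 901 in mutants. These counts are uncertain, because 65.6% of its 36-base words are not unique to it. *Ptger3* encodes EP3, which lowers cAMP, and had 156 to 187 normalized counts in controls and 169 to 175 in mutants, nearly the same level in all libraries. Its log2 fold change was -0.014 (SE 0.122, adjusted p = 0.974, edgeR), and its sign turned with upper quartile normalization.

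EP2 and EP4, the receptors that raise cAMP, were the rarest members. *Ptger2* had 10.97, 2.01, 10.6 and 13.2 normalized counts in the control libraries 2, 3, 10 and 11, the second of them below the floor of 3 counts, and 21.1, 17.6 and 15.2 in the mutant libraries 5, 12 and 13. The mutants all lay above the controls, by a small margin. With so few counts the log2 fold change of 0.96 had an SE of 0.508 and did not pass (adjusted p = 0.377, edgeR). *Ptger4* had 58.1, 55.2, 84.4 and 75.2 normalized counts in the control libraries and 90.1, 74.5 and 78.6 in the mutant libraries, which overlap (log2 fold change 0.25, SE 0.203, adjusted p = 0.608 from edgeR). Within libraries 10 to 13 its difference was -0.060.

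Counted over the list, 6 members had positive and 4 negative log2 fold changes, from -0.37 for *Ptgds* to 2.26 for *Ptgs2*. Mutant and control libraries did not overlap for 4 members, *Ptgs2*, *Ptgs1*, *Ptges* and *Ptger2*, all higher in mutants. Over all tested genes, 10.7% lay higher without overlap and 9% lower. Before adjustment, 3 members had a p-value of 0.05 or less in edgeR, against 18.2% of tested genes. DESeq2 called *Ptgs1*, *Ptgs2* and *Ptges*, against 8.8% of the genes it tested, and so did edgeR with a term for the run of library numbers, against 11.2%.

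Per length, the order of the members changed with genotype at 1 place. In controls *Ptgds* stood at 144 ± 51.2 RPKM (SD, n = 4 pools), followed by *Ptges3* at 35.2 ± 5.10, *Ptges2* at 6.86 ± 0.505, *Ptger1* at 5.44 ± 0.855 and *Ptgs1* at 3.60 ± 0.377. *Ptgs2* came sixth at 1.75 ± 0.342 RPKM, above *Ptges* at 1.19 ± 0.0594, *Ptger3* at 0.853 ± 0.0664, *Ptger4* at 0.288 ± 0.0588 and *Ptger2* at 0.0700 ± 0.0375. Among neighbours in this order, the libraries of *Ptges2* and *Ptger1* overlapped and those of other neighbours did not. In mutants (n = 3 pools) *Ptgs2* moved up to the third place, at 8.41 ± 3.18 RPKM, where its libraries overlapped those of *Ptges2* at 6.94 ± 0.570. *Ptger1* at 5.01 ± 0.106 and *Ptgs1* at 4.84 ± 0.237 RPKM then also overlapped.

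**Figure D3:**
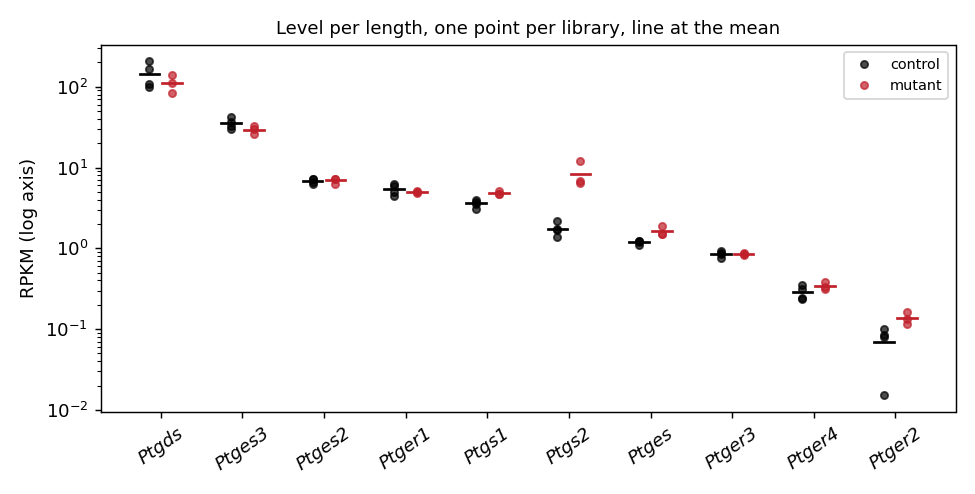
Level per length in RPKM (vertical log axis) of each member, ordered by the control mean, with a point for each control (black) and mutant (red) library and a line at each mean. The levels span from *Ptgds* at 144 RPKM down to *Ptger2* at 0.0700 RPKM in controls, and *Ptgs2* shows the widest gap between genotypes.

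The genes whose pattern over the 7 libraries was most like that of *Ptgs2* were *Gpnmb*, *Aspg*, *D330045A20Rik*, *Ecel1* and *A2m*. Likeness was measured by the Euclidean distance between log2 normalized counts (pseudocount 1), each gene relative to its own mean. The distances were 0.470, 0.755, 0.777, 0.869 and 0.910, against a median of 3.10 over all tested genes. *Gpnmb*, a membrane glycoprotein, averaged 61.2 ± 16.8 normalized counts over the control pools and 303 ± 68.3 over the mutant pools (SD, n = 4 and 3).

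The wider pathway was described by 37 further genes in lists of arachidonate supply, other prostanoid synthases, other prostanoid receptors, transport and inactivation, the lipoxygenase branch, and neighbours in name. Of these, 29 passed the filter, 3 rose, none fell, and the remaining 26 tested genes did not pass (edgeR); the median log2 fold change of the tested genes was 0.052. Over all tested genes, as above, 2.97% rose and 1.87% fell.

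Transport and inactivation held 2 of the 3 calls among 6 genes tested. *Slco2a1*, the carrier that takes prostaglandins up for clearance, had 205, 170, 149 and 155 normalized counts in the control libraries 2, 3, 10 and 11, and 427, 325 and 336 in the mutant libraries 5, 12 and 13. Every mutant library lay above every control library by a wide margin. *Slco2a1* rose by 1.10 on the log2 scale (SE 0.156, adjusted p = 0.00689, edgeR) and was called in each alternative. *Abcc4*, a transporter that exports prostaglandins from cells, had 454, 433, 469 and 566 normalized counts in the control libraries and 765, 701 and 794 in the mutant libraries. *Abcc4* rose by 0.65 (SE 0.117, adjusted p = 0.0171, edgeR), a call lost without control library 10 or without any 1 of the mutant libraries, with adjusted p-values up to 0.100 without library 13. The inactivating enzymes did not pass, among them *Hpgd*, the dehydrogenase that starts prostaglandin breakdown (log2 fold change 0.24), and the reductases *Ptgr1* (0.052), *Ptgr2* (0.26) and *Zadh2* (-0.091), the last with the highest level per length of this list in controls, at 7.44 ± 0.225 RPKM. *Ptgr2* was called higher with the run of numbers as a covariate (edgeR, adjusted p = 0.0229) and in libraries 10 to 13 alone (0.0396).

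Both transporters are known from brain endothelium, among other cells. In a list of 8 endothelial markers, all 8 had positive log2 fold changes, with a median of 0.32, and none passed. Mutants lay higher without overlap for 4. Of all tested genes, 47.8% had positive log2 fold changes and 10.7% lay higher without overlap. The summed level of the endothelial markers was 67.7 to 74.0 RPKM in controls and 89.2 to 92.2 RPKM in mutants. Positive values were not limited to this list. All 7 astrocyte markers had positive log2 fold changes, with a median of 0.18, 3 lay higher without overlap and none passed. Their sums were 746 to 966 RPKM in controls and 996 to 1166 RPKM in mutants. The part of endothelium or astrocytes in the values of *Slco2a1* and *Abcc4* was not tested.

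In arachidonate supply, 1 of 6 tested genes was called. *Pla2g5*, a secreted phospholipase, had 54.8, 50.2, 48.0 and 66.1 normalized counts in the control libraries 2, 3, 10 and 11, and 98.7, 116 and 116 in the mutant libraries 5, 12 and 13. The groups lay well apart, at a low level. *Pla2g5* rose by 1.01 on the log2 scale (SE 0.176, adjusted p = 0.0153, edgeR), a call lost without control library 10, mutant library 12 or mutant library 13 (up to 0.0878). The main intracellular enzyme *Pla2g4a*, which frees arachidonate on calcium signals, stood at 169.5 ± 33.5 normalized counts over the 4 control pools and 156 ± 3.00 over the 3 mutant pools (mean and SD). *Mgll*, the monoacylglycerol lipase that supplies much of the arachidonate for prostaglandins in brain, had the highest level of this list, at 57.3 ± 3.32 RPKM in controls and 51.5 ± 1.94 RPKM in mutants. Its log2 fold change of -0.16 did not pass (adjusted p = 0.366, edgeR).

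No synthase outside the members passed in the test without covariates. In controls the highest level per length in that list was that of *Fam213b*, an F synthase, at 31.8 ± 6.54 RPKM in controls and 23.5 ± 3.07 in mutants (log2 fold change -0.44, adjusted p = 0.197, edgeR). It was called lower with the run of numbers as a covariate (edgeR, adjusted p = 0.0426) and in libraries 10 to 13 alone (0.0399). *Ptgis*, the prostacyclin synthase, had 116 to 136 normalized counts in controls and 160.0 to 175 in mutants. These groups did not overlap, though the log2 fold change of 0.40 did not pass (adjusted p = 0.135, edgeR). *Hpgds*, the haematopoietic D synthase of microglia, had 179 to 256 normalized counts in controls and 215 to 259 in mutants, which overlap.

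Among receptors for other prostanoids, 3 of 5 were tested and none passed. *Tbxa2r*, the thromboxane receptor, had the highest level per length, at 0.652 ± 0.202 RPKM in controls and 1.09 ± 0.142 in mutants (log2 fold change 0.74, adjusted p = 0.186, edgeR). Among the neighbours in name, the highest level per length was that of *Ptgfrn*, a membrane protein that binds the F receptor, which had 2213 to 2675 normalized counts in controls and 2862 to 3636 in mutants; the log2 fold change of 0.40 did not pass (edgeR, adjusted p = 0.0735). These groups did not overlap, and *Ptgfrn* was called higher by DESeq2 (adjusted p = 0.0138), by edgeR with the run of numbers as a covariate (0.00713) and by edgeR in libraries 10 to 13 alone (0.0135). In the lipoxygenase branch, the alternative fate of arachidonate, 6 of 7 genes were tested and none passed, from -0.46 for *Alox5ap* to 0.32 for *Ltc4s*. *Lta4h*, which makes a leukotriene, was the most abundant there at 13.3 ± 1.16 RPKM in controls and 14.2 ± 0.603 in mutants.

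**Figure D4:**
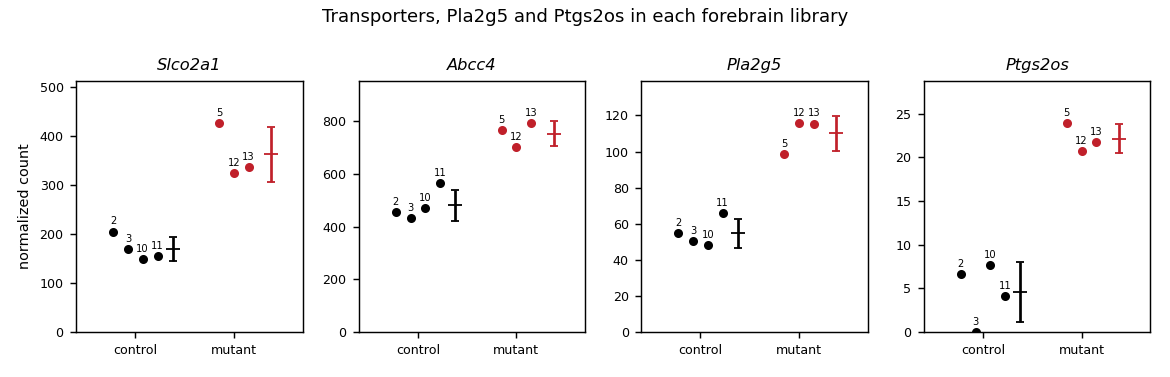
Normalized counts (vertical axis, starting at 0) of *Slco2a1*, *Abcc4*, *Pla2g5* and *Ptgs2os* in 4 control (black) and 3 mutant (red) libraries, with library numbers at the points and bars for mean and SD. For all 4 genes every mutant library lies above every control library; *Ptgs2os* has at most 24.0 normalized counts and did not pass in edgeR.

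**Figure D5:**
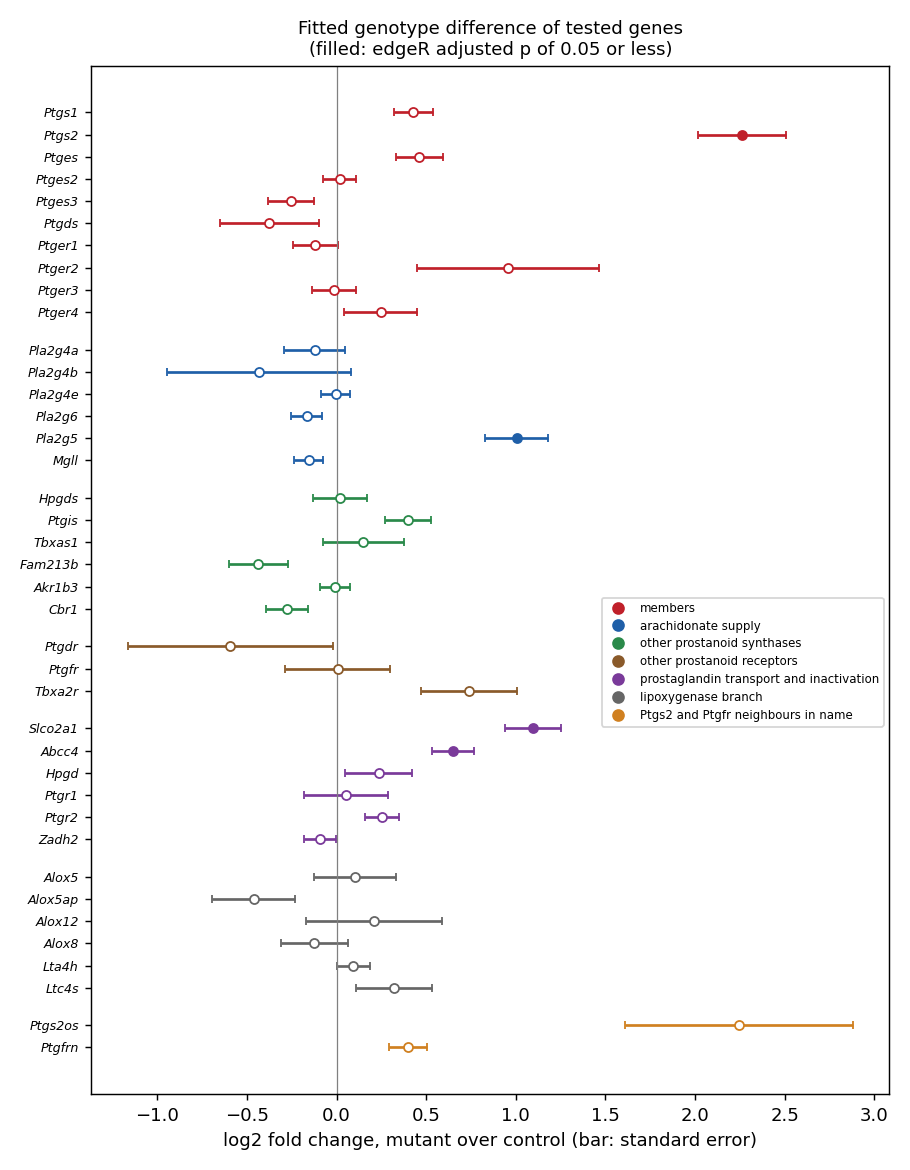
Fitted log2 fold change (horizontal axis, mutant over control, bars for standard errors) of the members and the tested genes of the wider pathway, coloured by list. Filled points passed an adjusted p of 0.05 in edgeR and mark *Ptgs2*, *Pla2g5*, *Slco2a1* and *Abcc4*, all to the right of 0.

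The position of the members on the genome bears on the comparison, since 4 of the 10 lie on chromosome 2 with *Lhx6*. *Ptgs1* is 0.125 Mb from *Lhx6*, *Ptges2* 3.68 Mb, *Ptges* 5.15 Mb and *Ptgds* 10.6 Mb, and their log2 fold changes were 0.43, 0.017, 0.46 and -0.37. Within 10 Mb of *Lhx6*, 8 of the 238 tested genes other than *Lhx6* were called with edgeR, or 3.36%. *Ptgs2*, on chromosome 1, is not linked to *Lhx6*.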

How the data were processed

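RNA of 7 forebrain pools was analysed (4 *Lhx6*+/-, 3 *Lhx6*-/-). The authors trimmed 36 bp reads with CutAdapt 1.9.1, aligned them to the Ensembl GRCm38 transcriptome with Bowtie2 2.2.9, and deposited expected counts per gene from RSEM 1.2.31, which divides reads that match several genes; replicates were not pooled. Strand use in counting is not given in the sources used here. A further table of the authors' DESeq2 comparison (fold changes and p-values) served for gene symbols only. Positions and exon lengths came from the deposited exon annotation, promoters from RefSeq, and shared 36-base words from GENCODE transcripts of the same build.

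Counts were rounded. Genes reaching 10 counts in 3 or more libraries were scaled by TMM and tested with edgeR 4.0.16 (quasi-likelihood F-test, R 4.3.3), with no covariate and Benjamini-Hochberg adjustment over all tested genes at 0.05. Standard errors were derived as the size of the log2 fold change divided by the root of F. Within-run differences are log2 ratios of mean normalized counts. Alternatives were DESeq2 1.42.0, limma-voom (limma 3.58.1), RLE and upper quartile scaling, other filters, unrounded counts, the run of library numbers, and each library left out. The fits were tested on simulated data. Columns name a genotype and a library number, so libraries were grouped by genotype; 0 columns were left out. Between pairs of libraries of 1 genotype, chi-square over its degrees of freedom was 9.96 to 70.8, so each counted as 1 replicate; p-values measure the spread between pools. Members, lists and alternatives were chosen with earlier results of these data known. Named were all members, pathway genes that were called or highest per length in their list (in controls: *Mgll*, *Fam213b*, *Tbxa2r*, *Zadh2*, *Lta4h* and *Ptgfrn*), marker genes called or at 0, overlapping or opposite-strand genes of members, and the 5 nearest profiles; *Hpgds*, *Ptgis*, *Pla2g4a*, *Alox5ap*, *Ltc4s*, *Hpgd* and the reductases *Ptgr1* and *Ptgr2* were named after their values were seen.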

Additional observations from a re-analysis of the deposited data

How the results depend on the processing

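*Ptgs2* was called higher in all 16 alternatives, with log2 fold changes from 1.91 to 2.44. The number of members called, 1, became 3 with DESeq2 and 3 with the run of numbers as a covariate, by the addition of *Ptgs1* (0.43 and 0.41) and *Ptges* (0.46 and 0.48); it stayed at 1 in each fit that left out a library. The number of wider pathway genes called, 3, became 5 with DESeq2 (with *Ptgfrn* and *Ptgs2os*), 6 with the run as a covariate and 6 in libraries 10 to 13 alone (both with *Fam213b*, *Ptgfrn* and *Ptgr2*), and ran from 1 to 4 when single libraries were left out, with 1 without control library 10, mutant library 12 or mutant library 13, where *Slco2a1* was the gene called. These fits differ in the share of all genes called as well, from 1.56% without mutant library 13 to 11.2% with the run as a covariate. Signs changed in members that were not called: *Ptges2* (-0.015 with the run as a covariate), *Ptger3* (0.012 with upper quartile normalization) and *Ptger4* (-0.052 in libraries 10 to 13 alone), and when single libraries were left out *Ptges2* ran from -0.027 to 0.095 and *Ptger3* from -0.060 to 0.027. The cause of these changes was not tested. Of 159 values of members under alternatives, 146 kept direction and side of the threshold; *Ptger2* had no value where 10 counts in all libraries were required. No paired analysis was possible because the columns carry library numbers and not the replicate numbers of the labels. Depth limits *Ptger2* and *Ptgs2os*, which had at most 21.1 and 24.0 normalized counts.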
